A study of Mus musculus with 12 samples.

Results

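Expression of 10 genes that act in or mark the epithelial-mesenchymal transition was measured in cultured mouse keratinocytes that carried an oncogenic RAS gene or a transgene for hepatocyte growth factor. The genes were the cadherins Cdh1, Cdh2 and Cdh3, the filament gene Vim, the transcription factor genes Snai1, Snai2, Zeb1, Zeb2 and Twist1, and the chromatin gene Hmga2. A transcript cluster (the set of array probes read as 1 transcript) was a member where the platform annotation gave it 1 of these symbols and no other. Each gene had 1 such cluster, so the members were 10 genes of 15868 tested. All 10 passed the filter on low values.

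Primary keratinocytes of FVB/N mice were profiled on 12 Affymetrix Mouse Gene 1.0 ST arrays, in 4 groups of 3. The wild-type cells are the control. RAS cells are wild-type keratinocytes transduced with v-rasHa, the oncogene of Harvey murine sarcoma virus. MT-HGF cells come from transgenic mice with HGF, the ligand of the receptor MET, under a metallothionein promoter, which is active in many cell types and not in keratinocytes alone. The last group is MT-HGF cells treated with AG1478, an inhibitor of the EGFR kinase, and labelled as mock transduced. A protocol of RAS transduction for 3 days is written beside all 9 arrays of the first 3 groups, and it is not stated whether their control cells received a mock virus. The AG1478-treated arrays carry another protocol, with 24 h of drug and 8% serum throughout, and other wording for extraction and array work. No array of vehicle-treated cells was analysed here, so the drug and these differences in protocol cannot be told apart in any comparison with the treated group. Arrays of the first 3 groups are labelled biological replicates and those of the treated group replicates. The labels do not say which share an animal or a culture, so a p-value here reflects array-to-array spread that may be partly technical.

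In the transition, epithelial cells lose the contacts that hold them in a sheet and take on features of migrating mesenchymal cells. In the textbook form E-cadherin, the product of Cdh1, is replaced by N-cadherin, the product of Cdh2, and vimentin filaments appear. SNAI, ZEB and TWIST proteins drive it by binding short E2 box elements in the promoters of epithelial genes, E-cadherin's among them, and recruiting repressors. MicroRNAs act against some of the members. The miR-200 family and miR-205 target the messages of Zeb1 and Zeb2, and let-7 targets that of Hmga2, a DNA-bending protein of stem and tumour cells. In skin, Cdh1 and Cdh3 hold keratinocytes together, Snai2 is a normal basal-layer factor, and Cdh2, Zeb2 and Vim are also made by melanocytes or fibroblasts.

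Mature microRNAs of these families are shown because their seeds define which messages they pair with. They were read from RefSeq, build GRCm38.p6, and are printed from the 5′ to the 3′ end with the seed, bases 2 to 8, in capitals. In that build miR-205-5p lies at chr1:193507503-193507524 on the minus strand and let-7e-5p at chr17:17830366-17830387 on the plus strand. MiR-200a-3p and miR-200b-3p lie at chr4:156054911-156054932 and chr4:156055685-156055706, and miR-141-3p and miR-200c-3p at chr6:124717917-124717938 and chr6:124718324-124718346, all on the minus strand. The sequences fall into 4 seed groups, with miR-200b and miR-200c sharing 1 seed and miR-200a and miR-141 another.
miR-205-5p: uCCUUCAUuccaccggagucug
miR-200b-3p: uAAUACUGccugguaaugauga
miR-200c-3p: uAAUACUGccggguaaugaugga
miR-200a-3p: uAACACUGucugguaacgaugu
miR-141-3p: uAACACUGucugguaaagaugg
let-7e-5p: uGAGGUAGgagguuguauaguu

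Promoter windows, the 250 bases before a gene's start, were found in the RefSeq table (GRCm38.p6) for 5 of the 10 members: Hmga2, Snai1, Twist1, Vim and Zeb2. Cdh1, Cdh2, Cdh3, Snai2 and Zeb1 had none in it. Of these, 3 are shown, for the member that differed most from wild type (Hmga2), for a SNAI gene with an E2 box in its own promoter (Snai1), and for the Zeb2 start whose window holds AP-1 letters. Capitals mark the E2 box (CACCTG or CAGGTG), the GC box (GGGCGG or CCGCCC) and the AP-1 site (TGANTCA), each searched on both strands. The windows are chr10:120476470-120476719 on the minus strand for Hmga2, chr2:167537945-167538194 on the plus strand for Snai1 and chr2:45110278-45110527 on the minus strand for Zeb2.
Hmga2: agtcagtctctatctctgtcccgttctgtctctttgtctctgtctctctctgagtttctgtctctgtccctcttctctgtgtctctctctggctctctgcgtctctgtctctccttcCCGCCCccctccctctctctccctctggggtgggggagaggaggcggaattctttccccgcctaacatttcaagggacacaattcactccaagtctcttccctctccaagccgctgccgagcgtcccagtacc
Snai1: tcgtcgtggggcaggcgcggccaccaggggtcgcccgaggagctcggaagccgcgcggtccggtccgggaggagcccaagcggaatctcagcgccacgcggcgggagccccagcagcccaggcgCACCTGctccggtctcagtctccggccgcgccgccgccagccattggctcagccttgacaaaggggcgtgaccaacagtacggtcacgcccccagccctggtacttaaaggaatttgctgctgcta
Zeb2: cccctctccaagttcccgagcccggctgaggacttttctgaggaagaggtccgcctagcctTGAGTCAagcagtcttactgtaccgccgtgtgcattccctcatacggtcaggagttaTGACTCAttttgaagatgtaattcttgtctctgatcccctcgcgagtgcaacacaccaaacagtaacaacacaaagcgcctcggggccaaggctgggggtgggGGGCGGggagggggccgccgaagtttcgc

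The Hmga2 window is 70.8% C or T, a share higher than in 99.6% of the 32851 windows of the table, whose median was 50%. Its GC box begins 133 bases before the start, and 32.7% of all windows hold that motif. The E2 box of Snai1 begins 126 bases before the start, against a share of 17.2% of all windows with 1. Zeb2 has 4 starts in the table. The window shown is the only one of the 4 with AP-1 letters, 189 and 132 bases before the start, and 6.75% of all windows hold an AP-1 site. No 2 matches in the windows shown overlapped. A match describes the letters and not a bound site.

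Values are log2 expression after RMA, so a difference of 1 is a doubling, and levels of different genes are not compared because each cluster has its own probes. Differences come from 1 limma fit over the 12 arrays, with p-values adjusted by Benjamini-Hochberg over the 15868 genes. A difference with an adjusted p below 0.05 is said to be called. Each was also refitted under 15 alternatives, of which 6 left out 1 array. Array background was the 95th percentile of 156 chemosensory receptor genes on each array, between 6.80 and 7.14. Where all 3 arrays of a group lay at or below it, a fold is given only as a lower limit. Arrays of a group correlated at 0.993 to 0.997. All 10 keratinocyte markers, such as Krt5 and Krt14, were above background on every array, with summed levels of 15.56 to 15.68. Bulk arrays hold markers of other cells too. Of 12 measured fibroblast markers 10 were above background on every array (Lum and Dpt on none), as were all 9 melanocyte markers on every array. Of 6 endothelial markers measured, 5, with Pecam1 and Cdh5 among them, were above it on no array. In bulk RNA, fewer cells of a type and less RNA per cell cannot be told apart.

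Against wild type, Hmga2 was the member with the largest rise in both RAS and MT-HGF cells, by more than 3-fold, while Vim, Snai1, Zeb1, Zeb2 and Twist1 fell in both. Cdh1 was not called in any of the 6 comparisons. Cdh2 was slightly higher in RAS cells and 1.85-fold lower in MT-HGF cells. The members were chosen with earlier results of these data known, so counts of members called are no independent evidence of enrichment or direction. In RAS cells 2 of the 10 members were called higher and 6 lower, beside 12.6% of all genes higher, 19.9% lower and 32.5% in either direction. The median difference of the members was -0.25, against -0.024 over all genes, and 8 members had no overlap between the arrays of the groups, beside 42.9% of all genes. In MT-HGF cells 1 member was called higher and 6 lower, beside 17.1% and 23.9% of all genes and 40.9% in either direction. Here the median was -0.34 against -0.032, and 9 members did not overlap, beside 50.4% of all genes. Both comparisons use the same 3 wild-type arrays. The shares and medians of all genes given with each comparison are also the background for the counts of the gene lists.

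**Figure D1:**
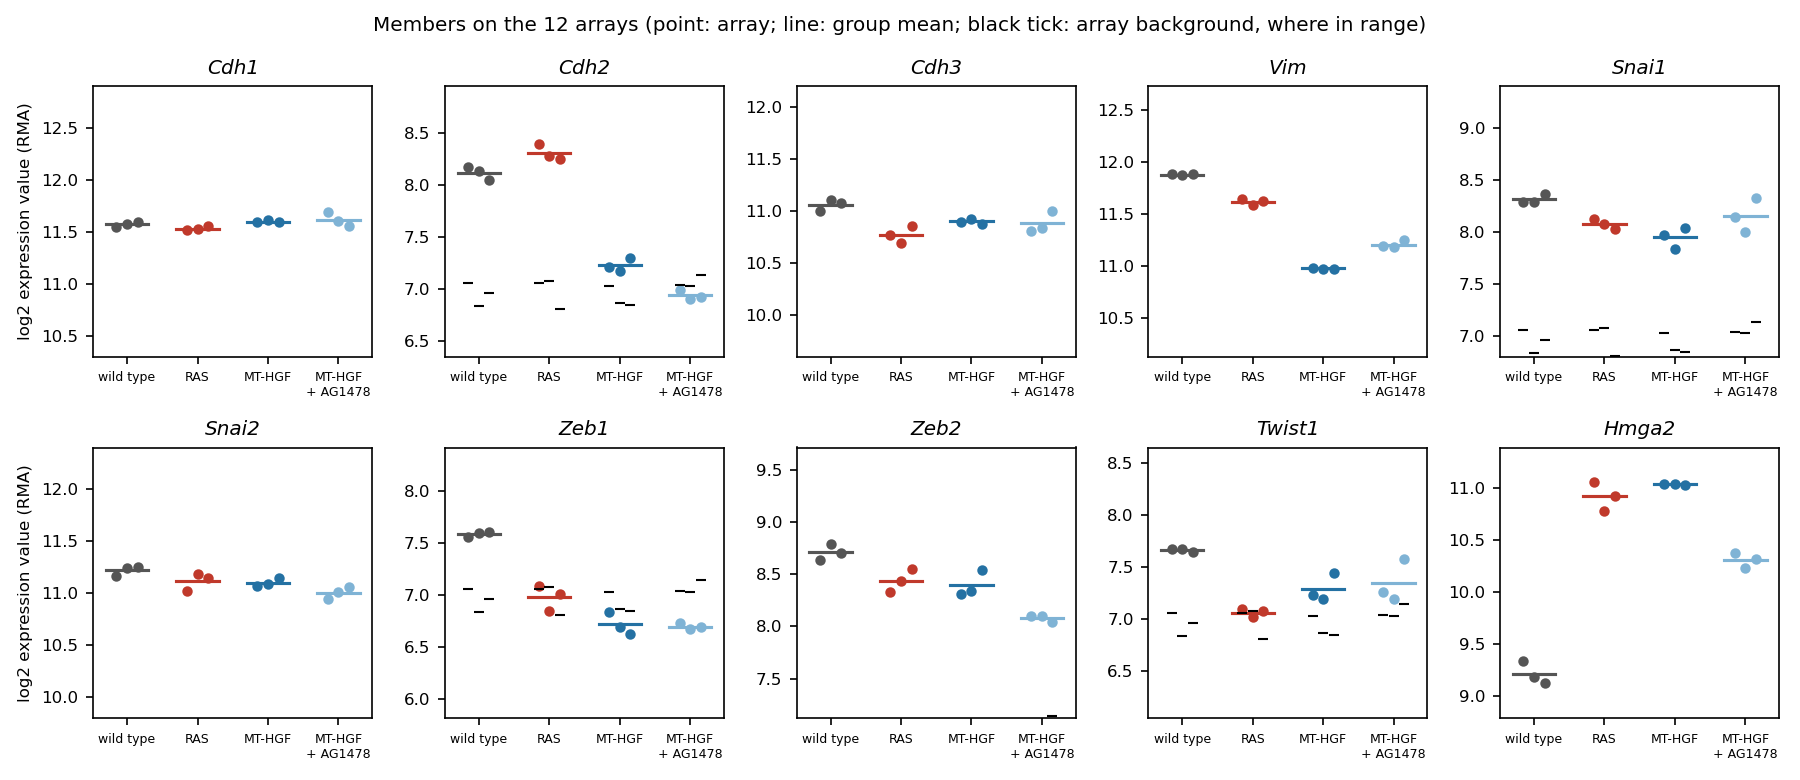
Log2 expression value (y axis, each panel with its own range of the same height) of the 10 members on the 12 arrays by group; each point is 1 array, each line a group mean, and black ticks mark array background where it falls in the range. Hmga2 lies between 9.12 and 9.34 in wild-type cells and above 10.2 on every other array, and Zeb1 leaves background on all 3 arrays in wild-type cells only.

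The cadherins are considered first, as the adhesion molecules whose balance defines the transition. Cdh1, the epithelial cadherin, was measured at 11.54, 11.57 and 11.59 in wild-type cells and at 11.51, 11.53 and 11.55 in RAS cells. Its values were 11.59, 11.61 and 11.59 in MT-HGF cells and 11.68, 11.60 and 11.55 after AG1478. Every group lay within 11.51 to 11.68, and wild-type arrays overlapped each of the other groups, while RAS arrays lay just below both MT-HGF groups. The difference was -0.039 (95% interval -0.17 to 0.086, adjusted p = 0.702) for RAS and 0.028 (-0.098 to 0.15, adjusted p = 0.783) for MT-HGF against wild type, so changes beyond about 0.17 in either direction lay outside these intervals.

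Cdh3, the P-cadherin of basal keratinocytes and hair follicles, was measured at 11.003, 11.11 and 11.08 in wild-type cells and lowest in RAS cells, at 10.77, 10.70 and 10.85. MT-HGF cells had 10.90, 10.93 and 10.88, and treated cells 10.81, 10.84 and 11.004. Wild-type arrays lay above all RAS and MT-HGF arrays and overlapped only the highest treated one. Cdh3 fell by 0.29 in RAS cells (interval -0.44 to -0.14, adjusted p = 0.00359). The difference of -0.16 in MT-HGF cells did not pass (adjusted p = 0.075), and MT-HGF and RAS cells did not differ beyond the threshold (0.13, adjusted p = 0.202). Across the 15 other settings the MT-HGF p ran from 0.00845 to 0.213, passing under 3 of them.

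Cdh2, the neural cadherin gained in the textbook transition, stood at 8.17, 8.13 and 8.05 in wild-type cells and at 8.39, 8.28 and 8.25 in RAS cells. It was 7.21, 7.17 and 7.30 in MT-HGF cells and 6.99, 6.91 and 6.92 after AG1478, where no array exceeded background. The 4 groups did not overlap, in the order RAS, wild type, MT-HGF and treated. Cdh2 fell 1.85-fold in MT-HGF cells against wild type (log2 difference -0.89, interval -1.03 to -0.75, adjusted p = 1.11e-08) and 2.11-fold against RAS cells (-1.08, adjusted p = 8.94e-09). The rise of 0.19 in RAS cells (interval 0.048 to 0.33, adjusted p = 0.038) was not called without wild-type replicate 2 (adjusted p = 0.0819) or 3 (0.169), or without RAS replicate 1 (0.161) or 2 (0.0629). It was also lost with arrays centred on their median (0.0575) and in a fit of these 2 groups alone (0.0636). Its adjusted p ran from 0.00118 to 0.169 over the 15 alternatives. Melanocyte markers were also lower in both MT-HGF groups than in the others: their summed level was 13.84 to 13.97 in RAS, 13.75 to 13.89 in wild-type, 13.41 to 13.58 in MT-HGF and 13.41 to 13.56 in treated cells. These sums overlapped between RAS and wild-type cells and between the MT-HGF groups. Of the 9 melanocyte markers 6 fell in MT-HGF cells against wild type, 7 fell against RAS cells and none was called in RAS cells against wild type. Their part in the Cdh2 difference was not tested.

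Among 13 other cadherins measured, 2 were called higher and 1 lower in RAS cells, and 1 each way in MT-HGF cells, with medians of 0.056 and 0.014. Of these calls 1 in each comparison, the rise of Cdh19, was at background in both groups and is no measured rise, which leaves Cdh13 as the rise in RAS cells (0.34, adjusted p = 0.00491). The lower one in both was Cdh11, a type II cadherin of mesenchymal and bone-forming cells. Cdh11 was between 11.10 and 11.12 on the wild-type arrays, between 10.03 and 10.15 in RAS cells and between 9.82 and 10.03 in MT-HGF cells. It thus fell 2.04-fold in RAS cells (-1.03, adjusted p = 3.17e-09) and 2.3-fold in MT-HGF cells (-1.20, adjusted p = 3.07e-10), and no wild-type array overlapped another group. Fibroblast markers were likewise highest in wild-type cells, as given beside Vim below, and their part in the Cdh11 difference was not tested. Among the 17 measured partners of cadherins at the adherens junction, 4 rose and 4 fell in RAS cells and 6 rose and 6 fell in MT-HGF cells. Ctnna1, the α-catenin that ties the cadherin complex to actin, differed by 0.21 in RAS cells (adjusted p = 0.0721) and rose by 0.33 in MT-HGF cells (adjusted p = 0.00463). In treated against untreated MT-HGF cells Ctnna1 fell by 0.36 (adjusted p = 0.00713). Ctnnb1, which encodes β-catenin, differed by -0.022 (adjusted p = 0.856) in RAS cells and by -0.008 (adjusted p = 0.947) in MT-HGF cells. Ctnnal1, an α-catenin relative, rose by 0.80 (adjusted p = 1.63e-07) and by 0.67 (adjusted p = 8.84e-07), and Nectin4, a nectin adhesion molecule, by 0.43 (adjusted p = 0.000887) and 0.68 (adjusted p = 6.47e-06).

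Vim encodes vimentin, the filament protein of mesenchymal cells. It was measured at 11.88, 11.87 and 11.88 in wild-type cells, at 11.65, 11.58 and 11.62 in RAS cells, at 10.98, 10.98 and 10.97 in MT-HGF cells and at 11.19, 11.18 and 11.25 after AG1478. No 2 groups overlapped. The order was wild type, RAS, treated MT-HGF and untreated MT-HGF, and each neighbouring pair in it passed the test. Vim fell by 0.26 in RAS cells (interval -0.38 to -0.14, adjusted p = 0.00186) and by 0.90 in MT-HGF cells (interval -1.02 to -0.78, adjusted p = 1.39e-09), or 1.2-fold and 1.87-fold. MT-HGF cells lay 1.56-fold below RAS cells (-0.64, adjusted p = 5.75e-07). Fibroblast markers were also highest in wild-type cells, with summed levels of 12.94 to 13.02, against 12.18 to 12.24 in RAS, 12.57 to 12.67 in MT-HGF and 12.54 to 12.64 in treated cells. Their lowest group was RAS, whereas that of Vim was MT-HGF. Summed levels of 9 leukocyte markers were 9.82 to 10.11 in wild-type, 9.47 to 9.62 in RAS, 9.36 to 9.49 in MT-HGF and 9.44 to 9.58 in treated cells. Of the 9, 4 fell and 1 rose in RAS cells, and 5 fell and 1 rose in MT-HGF cells, against wild type. The rise in each comparison, 1 of the falls in RAS cells and 2 in MT-HGF cells were at background in both groups. Lyz2 and Fcer1g, genes of myeloid cells, exceeded background on all 3 wild-type arrays and Tyrobp on 2, and none of these did so on any RAS or MT-HGF array. Cd3e exceeded background on some but not all arrays of both wild-type and RAS cells, and on no MT-HGF or treated array. Ptprc, the defining leukocyte marker, and Itgam, Cd14, Csf1r and Laptm5 exceeded it on no array of any group. The part of these cells in the Vim difference was not tested.

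Of 15 cytoskeletal genes listed beside vimentin, 4 rose and 6 fell in RAS cells (median -0.042) and 3 rose and 6 fell in MT-HGF cells (median -0.11), with 1 of the rises in RAS cells, that of Nes, at background in both groups. Plec, the plectin that links intermediate filaments to junctions, fell by 0.45 in RAS cells (adjusted p = 0.000107) and in MT-HGF cells it fell by 0.70 (adjusted p = 5.61e-07). Tpm1, a tropomyosin of actin filaments, fell by 0.46 (adjusted p = 3.19e-05) and fell by 0.65 (adjusted p = 4.2e-07). Fscn1, whose product fascin bundles actin in cell protrusions, rose by 0.39 (adjusted p = 0.000685) and 0.47 (adjusted p = 8.39e-05).

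Snai1 encodes the zinc-finger repressor SNAIL. It stood at 8.28, 8.29 and 8.36 in wild-type, 8.12, 8.07 and 8.03 in RAS and 7.97, 7.84 and 8.04 in MT-HGF cells, with 8.14, 8.00 and 8.32 after AG1478. Wild-type arrays lay above every RAS and MT-HGF array, and treated arrays spanned both. Snai1 fell by 0.24 in RAS cells (interval -0.41 to -0.066, adjusted p = 0.0323) and by 0.36, or 1.29-fold, in MT-HGF cells (interval -0.53 to -0.19, adjusted p = 0.00155). The RAS call was lost without wild-type replicate 2 (adjusted p = 0.0639) or 3 (0.12), without RAS replicate 2 (0.0785) or 3 (0.093), and after quantile normalization (0.0617), within a range of 0.000708 to 0.12 over the alternatives. Fibroblast and leukocyte sums, given beside Vim, were also highest in wild-type cells, and their part in the Snai1 difference was not tested. Snai2, or SLUG, was nearly level, from 11.17 to 11.25 in wild-type, 11.02 to 11.18 in RAS, 11.06 to 11.14 in MT-HGF and 10.94 to 11.06 in treated cells. RAS arrays overlapped wild type, and the differences of -0.10 in RAS (adjusted p = 0.259) and -0.12 in MT-HGF cells (adjusted p = 0.152) did not pass. For MT-HGF cells the alternatives ran from 0.0144 to 0.327, passing with array weights and after quantile normalization.

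Snai3, another SNAI gene, known mainly from muscle and lymphoid cells, was measured among the other transition-linked factors. No wild-type array exceeded background for Snai3 (6.33 to 6.41), whereas RAS arrays lay at 8.42 to 8.91, MT-HGF arrays at 8.47 to 8.58 and treated arrays at 7.54 to 7.87. It was at least 3.46-fold higher in RAS cells (measured difference 2.37, adjusted p = 3.73e-11) and at least 3.01-fold higher in MT-HGF cells (2.17, adjusted p = 1.01e-10). The SNAI genes thus did not share a direction: Snai1 fell in both groups, Snai2 passed in neither, and Snai3 rose in both.

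Zeb1, a zinc-finger homeobox repressor of E-cadherin, exceeded background in all 3 wild-type arrays at 7.55, 7.59 and 7.61. It did so on 2 of 3 RAS arrays, at 7.09, 6.85 and 7.01, and on no MT-HGF array (6.83, 6.70, 6.62) or treated array (6.73, 6.67, 6.69). Wild-type arrays overlapped no other group. Zeb1 fell 1.52-fold in RAS cells (-0.60, interval -0.76 to -0.45, adjusted p = 6.61e-06) and was at least 1.59-fold lower in MT-HGF cells (measured difference -0.87, adjusted p = 5.54e-08). MT-HGF cells were at least 1.05-fold below RAS cells (-0.27, adjusted p = 0.0129), a call lost without RAS replicate 1 (0.0633) or MT-HGF replicate 2 (0.0525) or 3 (0.0634), within 0.00594 to 0.0634 over the alternatives. Fibroblast and leukocyte markers were also highest in wild-type cells, as given beside Vim, and their part in the Zeb1 difference was not tested.

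Zeb2, its relative that melanocytes also express, was measured at 8.64, 8.79 and 8.70 in wild-type, 8.33, 8.43 and 8.55 in RAS, 8.31, 8.34 and 8.54 in MT-HGF and 8.10, 8.10 and 8.05 in treated cells. Wild-type arrays lay above all others, RAS and MT-HGF arrays overlapped, and treated arrays lay below all others. Zeb2 fell by 0.27 in RAS cells (interval -0.44 to -0.11, adjusted p = 0.0111) and by 0.32 in MT-HGF cells (interval -0.48 to -0.15, adjusted p = 0.00326). The RAS call was lost without wild-type replicate 2 (0.0602) or RAS replicate 1 (0.0617), within 0.000238 to 0.0617 over the alternatives. RAS and MT-HGF cells did not differ beyond their spread (-0.042, adjusted p = 0.78). Melanocyte sums, given beside Cdh2, were lower in MT-HGF than in wild-type cells without overlap, and overlapped between wild-type and RAS cells and between the treated and untreated MT-HGF cells. Fibroblast and leukocyte sums, given beside Vim, were highest in wild-type cells, as was Zeb2. The part of these cells in the Zeb2 differences was not tested.

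The microRNA loci were looked at after the values of the members were seen. Clusters of the array carry the symbols of 15 genes of the miR-200 family, miR-205 and let-7. They read RNA from the hairpin or its host transcript, not the mature microRNA. Mir205 and Mirlet7e exceeded background on all 12 arrays. Mir205 stood at 8.15, 8.29 and 8.33 in wild-type, 7.39, 7.34 and 7.89 in RAS, 7.97, 7.78 and 7.93 in MT-HGF and 8.38, 8.36 and 8.24 in treated cells. Wild-type and treated arrays overlapped and lay above all others. Mir205 fell by 0.71 in RAS cells (interval -0.96 to -0.47, adjusted p = 0.000108) and by 0.36 in MT-HGF cells (interval -0.60 to -0.12, adjusted p = 0.0164), so in both groups the RNA of this locus and that of Zeb1 and Zeb2 were lower than in wild-type cells. The MT-HGF call was lost without MT-HGF replicate 2 (0.0801) or wild-type replicate 2 (0.0507) or 3 (0.0644), within 7.41e-05 to 0.0801 over the alternatives. Mir200b passed background on all 3 MT-HGF arrays (7.24, 7.14 and 7.18), on 1 of 3 wild-type arrays and on no RAS array. It rose by 0.41 in MT-HGF cells against wild type (interval 0.17 to 0.65, adjusted p = 0.00681). Mir200a, Mir200c and Mir141 were not called in either comparison with wild type. Mir200a and Mir141 exceeded background on no array and Mir200c on 3 of 12, so this is no measured lack of change.

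Twist1, a helix-loop-helix factor of the mesoderm, was measured at 7.67, 7.67 and 7.64 in wild-type cells and at 7.09, 7.02 and 7.07 in RAS cells, where 2 of 3 arrays exceeded background. MT-HGF cells had 7.22, 7.19 and 7.44 and treated cells 7.26, 7.19 and 7.58. Wild-type arrays lay above and RAS arrays below all others, and the MT-HGF groups overlapped. Twist1 fell 1.52-fold in RAS cells (-0.60, interval -0.79 to -0.41, adjusted p = 6.46e-05) and 1.3-fold in MT-HGF cells (-0.37, interval -0.57 to -0.18, adjusted p = 0.00301). Between MT-HGF and RAS cells the difference of 0.23 did not pass (adjusted p = 0.0807). The summed fibroblast markers, given beside Vim, had the same order, highest in wild-type and lowest in RAS cells, and their part in the Twist1 difference was not tested. Its homologue Twist2, listed as a transition factor and as a dermal fibroblast marker, moved the other way. Twist2 was 9.16 to 9.26 in wild-type, 9.68 to 9.93 in RAS and 10.02 to 10.10 in MT-HGF cells. It rose 1.54-fold in RAS cells (0.62, adjusted p = 3.89e-06) and 1.81-fold in MT-HGF cells (0.86, adjusted p = 5.26e-08), with no overlap with wild type. Twist2 was named here after its values were seen.

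**Figure D2:**
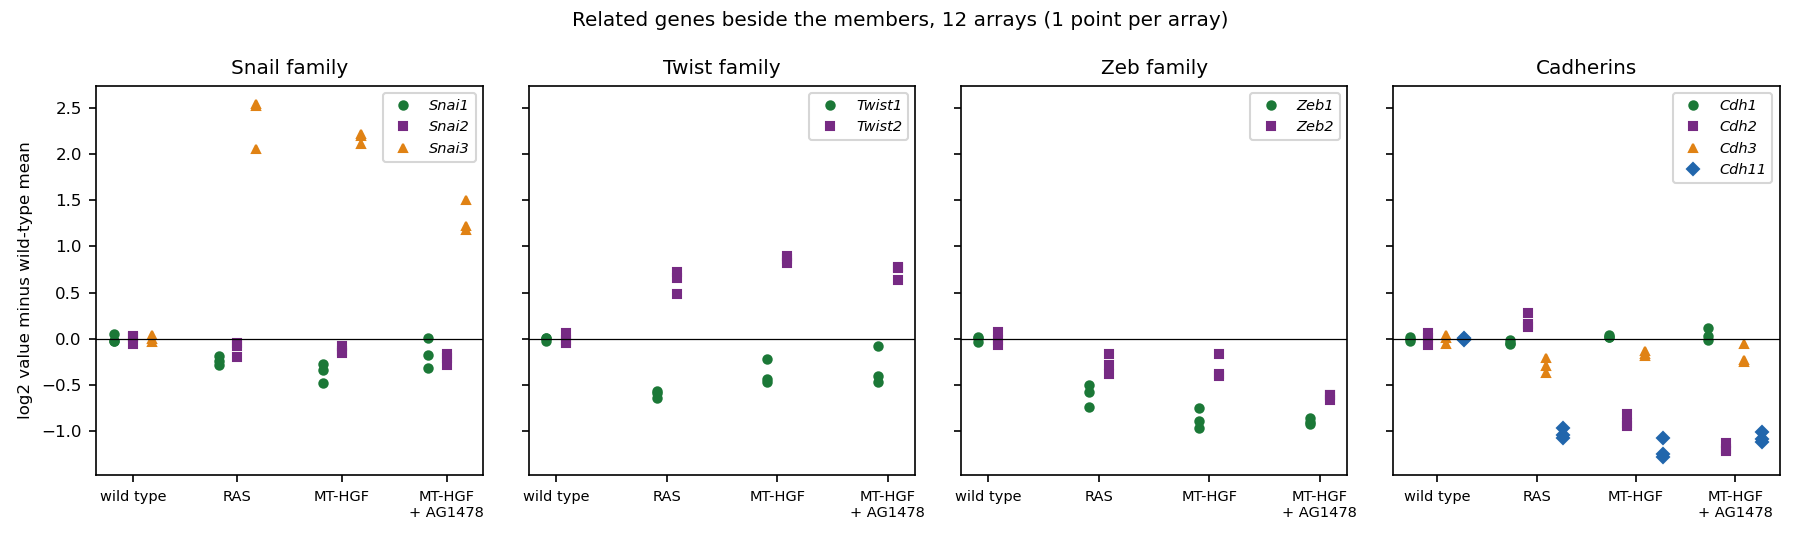
Log2 value minus the wild-type mean (y axis) of the SNAI, TWIST and ZEB genes and of 4 cadherins, with 1 point for each of the 12 arrays by group. Snai3 and Twist2 lie above 0 in the 3 other groups while Twist1, Zeb1 and Zeb2 lie below, and all wild-type values of Snai3 were at background.

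The other 25 transition-linked factors measured had 8 rises and 9 falls in RAS cells (median 0.007) and 7 rises and 13 falls in MT-HGF cells (median -0.22), with 1 of the falls in each, that of Klf8, at background in both groups. Prrx1, a homeobox factor of limb and dermal mesenchyme, fell by 0.97 in RAS cells (adjusted p = 3.41e-08) and by 1.37 in MT-HGF cells (adjusted p = 2.99e-10). Prrx1 and Twist2 stand in the fibroblast marker list too, in opposite directions. Id1, a BMP-induced inhibitor of helix-loop-helix factors, fell by 0.91 in RAS cells (adjusted p = 5.06e-08), and Id2, of the same family, by 1.49 in MT-HGF cells (adjusted p = 2.76e-08). Mean Id1 was also lower in MT-HGF than in wild-type cells (8.70 against 9.49), and mean Id2 lower in RAS than in wild-type cells (10.34 against 11.01).

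Hmga2, the architectural chromatin protein that let-7 represses, had the largest difference of the members. It stood at 9.34, 9.19 and 9.12 on the wild-type arrays and at 11.05, 10.78 and 10.92 on the RAS arrays. MT-HGF arrays read 11.04, 11.03 and 11.03, and treated arrays 10.37, 10.23 and 10.32. Wild-type arrays lay below and treated arrays between, with no overlap, while RAS and MT-HGF arrays overlapped at the top. Hmga2 rose 3.25-fold in RAS cells (1.70, interval 1.54 to 1.87, adjusted p = 2.83e-11) and 3.52-fold in MT-HGF cells (1.82, interval 1.65 to 1.98, adjusted p = 1.1e-11). Both calls held under all 15 alternatives. The 2 groups differed by 0.11 (interval -0.051 to 0.28, adjusted p = 0.335), an interval that reaches a difference of 0.28.

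Of 12 measured genes of the HMGA2, LIN28 and let-7 axis, 2 rose and 2 fell in RAS cells (median -0.03) and 2 rose and 4 fell in MT-HGF cells (median -0.045). Of these falls 1 in each comparison is that of Lin28b, which blocks let-7 processing and exceeded background on no array of any group, so it is no measured fall. Plag1, a growth-promoting zinc-finger gene known as an HMGA2 target, rose by 0.90 in MT-HGF cells (adjusted p = 4.69e-06). In RAS cells it rose by 0.34 (adjusted p = 0.0245), a call lost without wild-type replicate 1 (0.126) or RAS replicate 3 (0.115), within 0.00965 to 0.126 over the alternatives. Plagl1, a growth-restraining relative of Plag1, fell by 0.70 in RAS cells (adjusted p = 1.59e-05) and by 1.18 in MT-HGF cells (adjusted p = 1.9e-08). The let-7e locus, Mirlet7e, was measured at 7.74, 8.05 and 8.08 in wild-type, 7.97, 7.61 and 7.74 in RAS and 8.32, 8.43 and 8.26 in MT-HGF cells. It rose by 0.38 in MT-HGF cells (interval 0.17 to 0.60, adjusted p = 0.00588) and was not called in RAS cells (-0.18, adjusted p = 0.203). In RAS cells 2 of the 15 alternatives called Mirlet7e lower, within 0.000748 to 0.595. Mirlet7e and Hmga2 were thus both higher in MT-HGF than in wild-type cells. Mirlet7d exceeded background on 2 and Mirlet7i on 1 of 12 arrays. The related Mir98 and the remaining let-7 loci did so on no array, so the family as a whole was not measured.

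**Figure D3:**
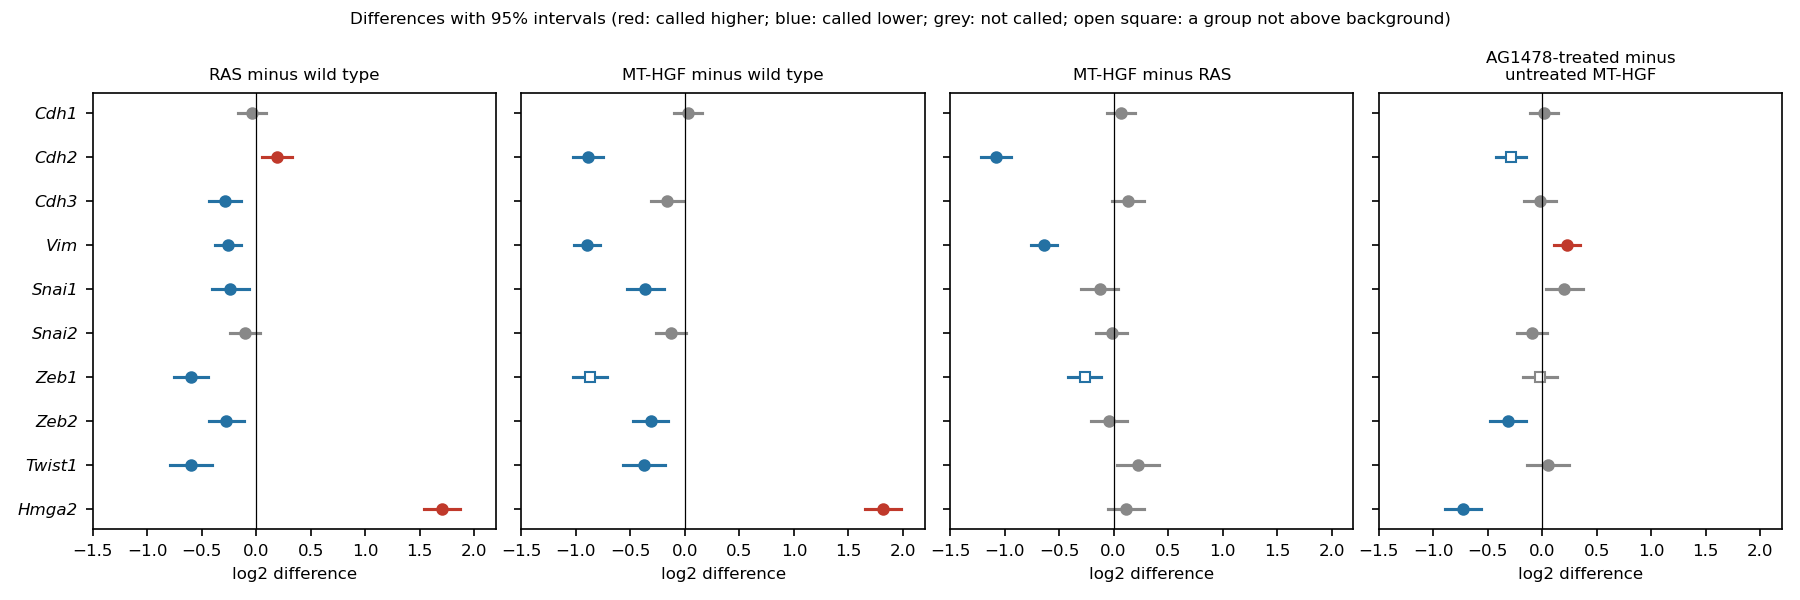
Log2 difference of group means (x axis) with its 95% interval for the 10 members in 4 comparisons; red marks members called higher, blue lower and grey not called, and an open square means that a group did not exceed background. Hmga2 lies at 1.70 and 1.82 above wild type in RAS and MT-HGF cells and at -0.73 after AG1478.

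Between MT-HGF and RAS cells, 3 members differed and all 3 were lower in MT-HGF cells: Cdh2, Vim and Zeb1, described above. That is 0 called higher and 3 lower of 10, beside 13.4% and 12.6% of all genes and 26.0% in either direction, a share near the background. The median of the members was -0.03 against -0.017 over all genes. Arrays of 6 members did not overlap, beside 39.2% of all genes.

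Genes that set or mark the epithelial state had more rises than falls. Their list was drawn up with earlier results of these data known, so the count is no independent evidence of direction. Of 27 measured epithelial regulators and junction genes, 12 rose and 1 fell in RAS cells and 18 rose and 0 fell in MT-HGF cells, with median differences of 0.14 and 0.28 against -0.024 and -0.032 over all genes, of which 12.6% and 17.1% were called higher. Of these rises 1 in RAS cells, that of Elf5, was at background in both groups. Over the 15 alternatives the rises numbered 11 to 12 and 15 to 21. Epcam, an epithelial adhesion molecule, was at 7.82 to 8.22 in wild-type, 9.73 to 9.78 in RAS and 10.13 ± 0.11 (mean ± SD, n = 3) in MT-HGF cells. It rose 3.2-fold (1.68, adjusted p = 3.33e-10) and 4.16-fold (2.06, adjusted p = 2.14e-11) without overlap. Elf3, an ETS factor of epithelial differentiation, was at background in wild-type cells and at least 3.06-fold higher in RAS cells (adjusted p = 2.96e-10) and at least 3.96-fold higher in MT-HGF cells (adjusted p = 2.35e-11). Prss8, the membrane protease prostasin, rose by 1.91 (adjusted p = 1.54e-11) and by 1.76 (adjusted p = 3.79e-11). Ehf, another epithelial ETS factor, rose by 1.80 in RAS cells (adjusted p = 1.01e-09). Its mean was also higher in MT-HGF than in wild-type cells (10.74 against 9.03), a difference called in the main fit and under all 15 alternatives. The core factor Grhl2 (0.035, adjusted p = 0.77 in RAS cells) and the splicing factor Esrp1 (-0.086, adjusted p = 0.349) were not called, and neither passed in MT-HGF cells (adjusted p = 0.0592 and 0.0664).

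Most mesenchymal and matrix genes fell. Many of them were known to be lower in these arrays when the list was drawn up, so the count is no independent evidence of direction. Of 25 measured, 2 rose and 19 fell in RAS cells and 5 rose and 18 fell in MT-HGF cells, with medians of -0.92 and -0.72. Of all genes, 12.6% and 17.1% were called higher and 19.9% and 23.9% lower, with medians of -0.024 and -0.032. The falls numbered 18 to 20 and 17 to 18 over the alternatives. Lox, which crosslinks collagen, was at 9.73 to 9.75 in wild-type, 7.12 to 7.29 in RAS and 6.83 to 6.93 in MT-HGF cells, where 1 of 3 arrays exceeded background. Lox fell by 2.56 in RAS cells (adjusted p = 1.54e-13) and in MT-HGF cells it fell by 2.85 (adjusted p = 3.76e-14). Tagln, an actin-binding protein of contractile cells, fell by 1.49 in RAS cells (adjusted p = 4.26e-09) and in MT-HGF cells it fell by 1.97 (adjusted p = 8.69e-11). The smooth muscle gene Cnn1 exceeded background in wild-type cells only and was at least 2.06-fold lower in RAS cells (adjusted p = 4.35e-08). Ccn2, a matrix growth factor, fell by 1.78 in MT-HGF cells. The collagen genes of this list stand in the fibroblast list as well. Of the 12 fibroblast markers 7 fell and 1 rose in RAS cells, and 7 fell and 4 rose in MT-HGF cells. Of these, the fall of Dpt in RAS cells and the rise of Lum in MT-HGF cells were at background in both groups, and the markers' part in the falls of the mesenchymal list was not tested. MT-HGF cells had 10 genes of the list higher and 8 lower than RAS cells, with Tgfbi, a matrix protein induced by TGF-beta, among the first (log2 difference 1.27) and Acta2, smooth muscle actin, among the second (-0.72).

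**Figure D4:**
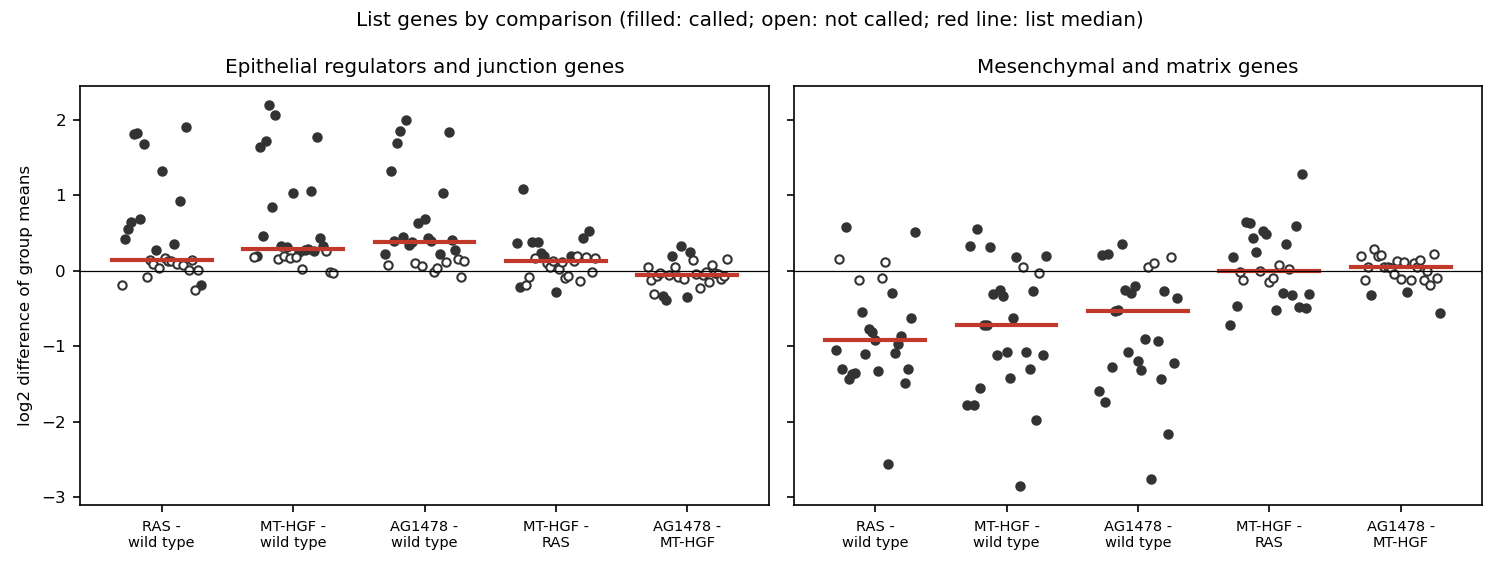
Log2 difference of group means (y axis) of each measured gene of the epithelial list (27 genes) and the mesenchymal list (25 genes) in 5 comparisons; filled points were called, open points were not, and the red line is the list median. The epithelial medians against wild type are 0.14, 0.28 and 0.38 for RAS, MT-HGF and treated cells, and the mesenchymal medians are -0.92, -0.72 and -0.53.

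The treated MT-HGF cells differ from the untreated ones by AG1478 and by the protocol described above, which cannot be told apart. Against untreated MT-HGF cells, Hmga2 and Zeb2 were lower, Vim was higher and Cdh2 sank into background. That is 1 member called higher and 3 lower, beside 6.57% and 9.91% of all genes and 16.5% in either direction. The median of the members was -0.019 against 0.019 over all genes, and 5 members did not overlap, beside 34.2% of all genes. In the treated cells Hmga2 fell 1.66-fold (-0.73, interval -0.89 to -0.56, adjusted p = 5.28e-06), a call that held under all 15 alternatives. Vim rose by 0.23 (interval 0.11 to 0.35, adjusted p = 0.0106). Zeb2 fell by 0.31 (interval -0.48 to -0.15, adjusted p = 0.00954), not called without MT-HGF replicate 3 (0.0594), within 0.00202 to 0.0594 over the alternatives. Cdh2 was at least 1.12-fold lower (measured difference -0.29, adjusted p = 0.00636).

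The other members did not pass in that comparison. Snai1 differed by 0.20 (interval 0.033 to 0.38, adjusted p = 0.0988), and it passed without AG1478-treated replicate 2 (0.0295) and with array weights (0.0218), with the alternatives reaching up to 0.385. Cdh1 (0.016, interval -0.11 to 0.14), Cdh3 (-0.017, interval -0.16 to 0.13), Snai2 (-0.093, interval -0.23 to 0.045) and Twist1 (0.057, interval -0.14 to 0.25) had adjusted p-values of 0.366 or more. Zeb1 was at background in both groups, so no difference is given. Snai3 fell by 0.87 (adjusted p = 3.13e-05), whereas Twist2 (-0.13, adjusted p = 0.246) was not called.

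The microRNA loci and other genes of the lists were compared between the same groups. Mir205 was 0.43 higher (interval 0.19 to 0.67, adjusted p = 0.0145) and Mirlet7e 1.27-fold lower (-0.34, adjusted p = 0.0281). The Mir205 call was lost without MT-HGF replicate 2 (0.0761) or AG1478-treated replicate 1 (0.0505), within 0.000172 to 0.0761. That of Mirlet7e was lost without MT-HGF replicate 1 (0.0535) or 2 (0.124), or treated replicate 2 (0.098) or 3 (0.0698), within 0.00816 to 0.124. Of the 27 epithelial genes 3 rose and 3 fell (median -0.057), among the latter Grhl3, a factor of barrier formation (-0.35, adjusted p = 0.000911). Of the 25 mesenchymal genes none rose and 3 fell (median 0.045), led by the matrix glycoprotein gene Tnc (-0.56). Id1 rose by 0.80 (adjusted p = 1.28e-06) and Id2 by 0.70 (adjusted p = 0.000576). In the HMGA2 axis Plagl1 rose by 0.66 (adjusted p = 8.14e-05) and the growth factor gene Igf2 by 0.37 (adjusted p = 0.00229), and 0 of its 12 genes fell.

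Treated cells still differed from wild type at most members. Of the 10, 1 was called higher and 7 lower, beside 16.8% and 26.2% of all genes and 42.9% in either direction. The median was -0.27 against 0.0036, and 7 members did not overlap, beside 50.5% of all genes. Hmga2 stayed 2.12-fold above wild type (1.09, interval 0.92 to 1.25, adjusted p = 8.3e-09), and Vim was 1.59-fold below it (-0.67, adjusted p = 6.88e-08). Zeb2 was 1.55-fold lower (-0.63, adjusted p = 4.85e-06), Cdh2 at least 2.07-fold lower (adjusted p = 4.13e-10) and Zeb1 at least 1.43-fold lower (adjusted p = 4.82e-08). The calls of 3 members were fragile. Cdh3 (-0.18, adjusted p = 0.0474) was lost without wild-type replicate 2 (0.153) or 3 (0.118), without treated replicate 1 (0.168) or 2 (0.137), and in a fit of these 2 groups alone (0.0853). Snai2 (-0.22, adjusted p = 0.0124) was lost without wild-type replicate 3 (0.0513) or treated replicate 1 (0.0595), and Twist1 (-0.32, adjusted p = 0.0091) without treated replicate 2 (0.0542). Snai1 (-0.16, adjusted p = 0.127) passed without treated replicate 3 (0.0177). Their adjusted p ran from 7.08e-05 to 0.168, 1.6e-05 to 0.0595, 3.34e-06 to 0.0542 and 0.000862 to 0.457.

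Against RAS cells, treated MT-HGF cells had 1 member higher and 5 lower, beside 16.3% and 20.4% of all genes and 36.7% in either direction. The median was -0.20 against 0.018, and 7 members did not overlap, beside 45.8% of all genes. Cdh2 was at least 2.36-fold lower (adjusted p = 1.98e-10), Vim 1.33-fold lower (-0.41, adjusted p = 3.09e-05), Zeb2 1.28-fold lower (-0.35, adjusted p = 0.00164) and Hmga2 1.53-fold lower (-0.61, adjusted p = 1.2e-05). Zeb1 was called lower (adjusted p = 0.00529) with treated arrays at background, and no fold is given. Twist1 was 0.28 higher (adjusted p = 0.0215), a call lost without RAS replicate 2 (0.0738) or treated replicate 3 (0.117), within 0.00705 to 0.117 over the alternatives. The comparisons of treated cells share their 3 arrays.

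**Figure D5:**
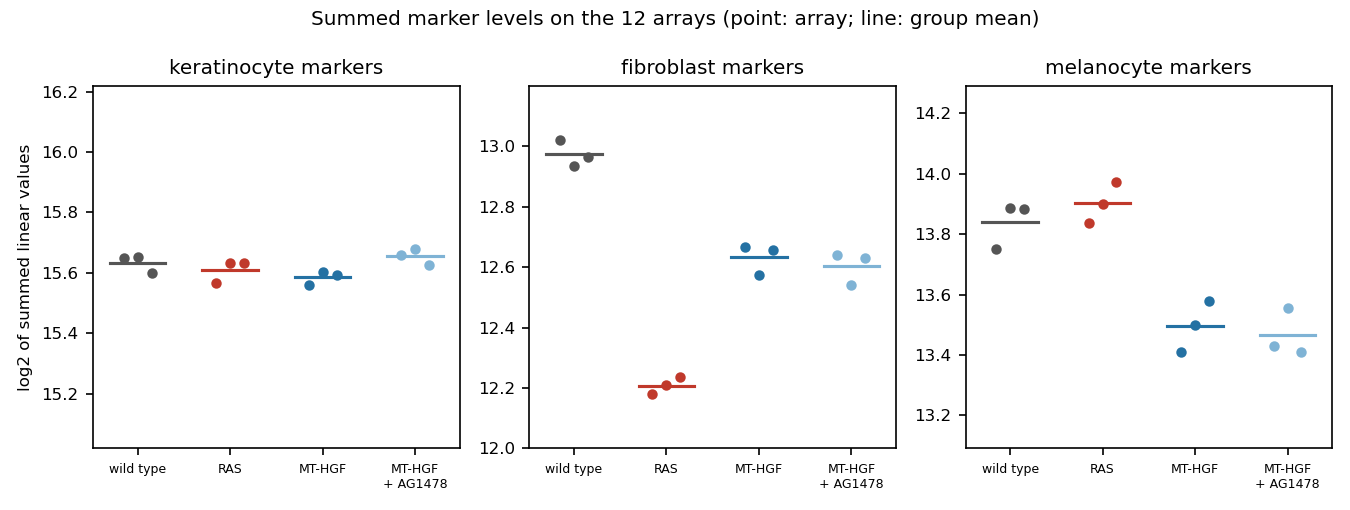
Log2 of the summed linear values of the keratinocyte, fibroblast and melanocyte markers (y axis) on the 12 arrays by group; each point is 1 array and each line a group mean. Fibroblast sums lie at 12.94 to 13.02 in wild-type cells and 12.18 to 12.24 in RAS cells, and melanocyte sums are lower in both MT-HGF groups than in the others.

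The genes most like each member over the 12 arrays are given as a description, by Pearson correlation. The arrays form 4 groups of 3 and share their scaling, so each r mostly follows the group means. Hmga2 was most like Procr (r = 0.996), Krt23 (0.993) and Gprc5a (0.992). Cdh2 was most like Fnbp1l (0.986), Vim like Psmb5 (0.990), Zeb1 like Knop1 (0.987) and Zeb2 like Wnt5a (0.977). Twist1 was most like Zfp469 (0.961), Snai2 like Rpp40 (0.961), Cdh1 like Plcg1 (0.955), Snai1 like Fam117b (0.954) and Cdh3 like Pde6d (0.951).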

How the data were processed

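The 12 arrays were deposited as log2 expression values of 35511 transcript clusters, which per the submitters' processing notes the authors computed with RMA, a method that corrects background, equalizes the arrays' distributions and summarizes probes. The RMA version, and which arrays were normalized together, are not given in the sources used here. Platform annotation gave 1 symbol to 21789 clusters, several to 1621 and listed no gene for 12101. Symbols were checked against RefSeq (GRCm38.p6) by gene ID, and 0 changed. Clusters above the 30th percentile of their array on at least 3 arrays were kept (25860). The cluster with the highest mean stood for a gene with several. Group means of all 12 arrays were fitted with limma 3.58.1 (lmFit and eBayes; residual degrees of freedom 8, prior 8.02) in R 4.3.3 and compared pairwise in 6 two-sided contrasts over 15868 genes. The fit was tested on simulated data. A lower limit sets the brighter group's mean against the mean, over the dimmer group's arrays, of the higher of array background and the gene's own value. Alternatives changed the filter, the cluster choice, the scaling, the groups fitted, the spread estimate and the replicate block, and left out each array in turn.

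The members and lists were chosen with earlier results of these data known. Named genes were the 10 members, at most 3 called genes with the largest differences per list and comparison, genes a sentence on a list needed, and those most correlated with a member. The number of arrays limits the precision.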

Additional observations from a re-analysis of the deposited data

How the results depend on the processing

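With 3 arrays a group, and values near array background for Zeb1, Twist1 and Cdh2, small differences and their calls are the least certain. Over 59 member differences and their alternatives, 885 values were computed: 833 kept direction and side of the threshold, 27 were no longer called, 14 became called and 11 changed sign, and 35 differences kept both throughout. All 11 sign changes were of differences that had not been called. Of 168 called differences of genes from the lists and loci, 141 stayed called throughout and 27 did not; 0 changed sign.

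With array weights, whose fit stopped before it converged, 8096 genes were called for RAS against wild type in place of 5158 and 3925 for AG1478 in place of 2615, and 5 members in place of 3 for MT-HGF against RAS. Leaving out 1 array, members called ranged from 5 to 8 for RAS against wild type, with 5 of 10 without wild-type replicate 2. Sign changes were those of Cdh1 for MT-HGF against wild type (-0.0193, quantile normalization) and of Cdh3 (0.0217, quantile normalization) and Cdh1 (-0.0037, centred arrays) for AG1478. Leaving out 1 array, the difference ranged across 0 for Snai2 (-0.0653 to 0.014) and Zeb2 (-0.1155 to 0.014) in MT-HGF against RAS, for Cdh3 (-0.0764 to 0.0185), Cdh1 (-0.02 to 0.0454) and Twist1 (-0.0603 to 0.1338) with AG1478, and for Snai1 in treated cells against RAS (-0.0062 to 0.1557). For changes of setting in which samples stayed the same, the cause was not tested. Another scaling moved the median of all genes by less than 0.1.

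Replicate numbers were not used as pairs in the main fit. To look at pairing, each gene's group mean was first subtracted from its values. Of 18 correlations of the remainders between same-numbered arrays of different groups, 7 were over 0.1, within -0.44 to 0.53. Matched only with arrays of other groups, 5 of 12 arrays were most like an array of their own number. How many would be so at random was not computed. Among wild-type, RAS and MT-HGF arrays, the remainders of those numbered 1 correlated at 0.40 to 0.53 and of those numbered 3 at 0.27 to 0.50. Those numbered 2 lay at -0.24 to 0.087. Whether same-numbered arrays share a culture or a batch was not tested. With the replicate block, members called were 8, 7, 3, 4, 8 and 6 in the 6 comparisons, in the order RAS and MT-HGF against wild type, MT-HGF against RAS, and treated against MT-HGF, wild type and RAS, and genes called were 5262, 6558, 4254, 2708, 6959 and 5931.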

Other observations

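Proteins that SNAI and ZEB factors recruit or that set their stability formed a further list, of which 16 genes were measured. In RAS cells 1 of them rose and 3 fell (median 0.0048), and in MT-HGF cells 1 rose and 6 fell (median -0.12), beside 40.9% of all genes called. Lats2, a Hippo pathway kinase that phosphorylates SNAI1, was at 9.96 on average in wild-type, 9.47 in RAS, 9.09 in MT-HGF and 8.80 in treated cells. It fell by 0.49 in RAS cells (limma, adjusted p = 0.000149) and by 0.87 in MT-HGF cells (adjusted p = 1.82e-07). Kdm1a, the histone demethylase LSD1 that SNAI1 recruits, fell by 0.48 in MT-HGF cells (adjusted p = 3.75e-05) and differed by -0.019 in RAS cells (adjusted p = 0.887). Dnmt1, the maintenance DNA methyltransferase, was the gene that rose in MT-HGF cells, by 0.54.

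Among measured transition-linked factors, Fosl1, an AP-1 subunit induced by ERK signalling, had a pattern like that of Hmga2 in direction. It rose by 0.79 in RAS cells (adjusted p = 4.5e-06) and by 0.69 in MT-HGF cells (adjusted p = 1.38e-05), fell by 0.60 in treated against untreated MT-HGF cells (adjusted p = 0.000257), and treated cells were 0.098 above wild type (adjusted p = 0.431). Fosl1 was named after its values were seen.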
